A study of Felis catus with 6 samples.

Results

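Membrane trafficking genes are described here in biopsies of feline chronic gingivostomatitis (FCGS), a chronic inflammation of the oral mucosa of cats. They were chosen by their symbols, which begin as those of Rab, Arf and Arl GTPases, TBC-domain proteins, sorting nexins, VPS proteins, SNAREs and synaptotagmins, SEC and COPZ proteins, exocyst and autophagy proteins do. Only a supplementary gene table of the study gives names. It lists genes selected on a difference of 2-fold or more between lesion and healthy mucosa. The rule found 33 genes among 1929 identifiers with a name, of 13327 identifiers tested and 21529 in the files. Of the 33, 21 (63.6%) were higher and 12 lower in lesions, beside 67.0% higher among all named identifiers. The rows used here lack the strongest falls of that table, so the split also reflects which rows were at hand. Because the same contrast chose them, the differences below describe these genes and carry no test of their own.

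RNA was sequenced from 6 libraries of 3 cats (Bart, Jerome and Sadie), each with 1 biopsy of an FCGS lesion and 1 of adjacent healthy mucosa. All 3 cats had FCGS, so the healthy libraries come from diseased animals, and a full-thickness biopsy mixes epithelium, stroma, vessels, muscle and leukocytes. The cats received buprenorphine for pain and no immunosuppressive drug at sampling, and their age, sex and breed are not given in the labels. The labels call the tissue gingival, whereas the series text places the biopsies lateral to the palatoglossal folds. Expression is in FPKM as deposited, a read count divided by transcript length and library size, so that levels of different genes can be set side by side. The genome build behind the identifiers is not given, and no coordinates are printed. Differences are given as log2 of lesion over healthy mucosa after values below 1 FPKM were raised to 1, and values in series are in the order Bart, Jerome and Sadie.

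Membrane trafficking moves proteins and lipids between compartments in coated vesicles. Coats of the COPII kind carry cargo out of the endoplasmic reticulum and coats of the COPI kind return it, Arf and Arl GTPases recruit coats and motors, and Rab GTPases mark each compartment. Exchange factors switch Rab proteins on and TBC-domain proteins switch them off, tethers such as the exocyst hold a vesicle at its target, and SNAREs fuse it. Antibody-secreting cells rely on export from the endoplasmic reticulum, and leukocytes and epithelial cells on regulated exocytosis, endosomal sorting and autophagy.

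The libraries differed in more than the disease. FPKM summed to 1382122 to 1903773 per library. Markers of skeletal muscle (9 of 13 named) summed to 1891 to 4008 FPKM in both libraries of Sadie and the lesion of Jerome and to 4.60 to 12.3 FPKM in the other 3. KRT4, the keratin of mature oral epithelium, was listed at 0 in the healthy libraries of Jerome and Sadie, against 2534 and 569 FPKM in their lesions. In Bart it measured 2089 FPKM in healthy mucosa and 8.995 FPKM in the lesion. TGM5, the other named marker of differentiated squamous epithelium, measured 7.495, 2.86 and 6.529 FPKM in healthy mucosa and 0.0813, 0.425 and 0.556 FPKM in lesions. T cell markers (11 of 12 named, all higher in lesions) summed to 259 to 719 FPKM in lesions against 71.5 to 198 FPKM in healthy mucosa. In bulk RNA of this kind, fewer cells of a type and less RNA per cell cannot be told apart.

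Each of the 33 genes kept its direction in all 3 cats, and the share of all identifiers that did so was not computed. Of the 33, 29 had lesion and healthy values that did not overlap. These were 17 of the 21 higher genes, where 16.7% of all identifiers tested had every lesion above every healthy library, and all 12 lower genes, where 21.9% had every lesion below. At least 2-fold in every cat were 8 of the 21 (8.81% of all identifiers) and 4 of the 12 (6.81%). In limma over all identifiers, 7 of the 21 were called higher (5.31% of all identifiers) and 8 of the 12 lower (6.61%) (adjusted p under 0.05). Once the cat entered as a block, 16 were called higher (12.2%) and 8 lower (11.1%). The 8 lower genes were not the same in both fits of limma. SNX33 was called only without the block (adjusted p 0.045, against 0.055 with it) and VPS9D1 only with it (0.029, against 0.051 without). The choice of the genes used this contrast, so nothing is read from these counts and shares.

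The counts of limma without the block changed when a library or a cat was left out. The fit with the block was not run this way. Such fits also hold fewer libraries, so a lower count does not by itself show that calls rested on the library left out. Leaving out the lesion of Bart gave 6 calls of higher genes and 2 of lower ones, with 1435 of the 13327 identifiers called. Leaving out both libraries of Bart gave 7 and 4, with 2136 identifiers called. Not all of these genes were among the calls above without the block. Leaving out the healthy library of Bart gave 1 higher gene and 2 lower ones, RAB24 and VPS9D1. Of these, VPS9D1 was not among the 8 called without the block from all libraries. Leaving out the lesion of Jerome gave 1 and 2. Of all identifiers, 898 were called without the healthy library of Bart and 655 without the lesion of Jerome. Leaving out the healthy library of Jerome, either library of Sadie, the cat Jerome or the cat Sadie gave 0 and 0. At an unadjusted p under 0.05 these fits had 10 to 15 higher and 8 to 11 lower genes. Of all identifiers they called 0 to 132, and 2139 to 3276 passed at the unadjusted p. The median log2 difference was 1.39 over the 21 higher genes (range 1.02 to 2.33) and -1.26 over the 12 lower ones (range -1.75 to -1.02), and -0.07 over all identifiers tested.

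**Figure D1:**
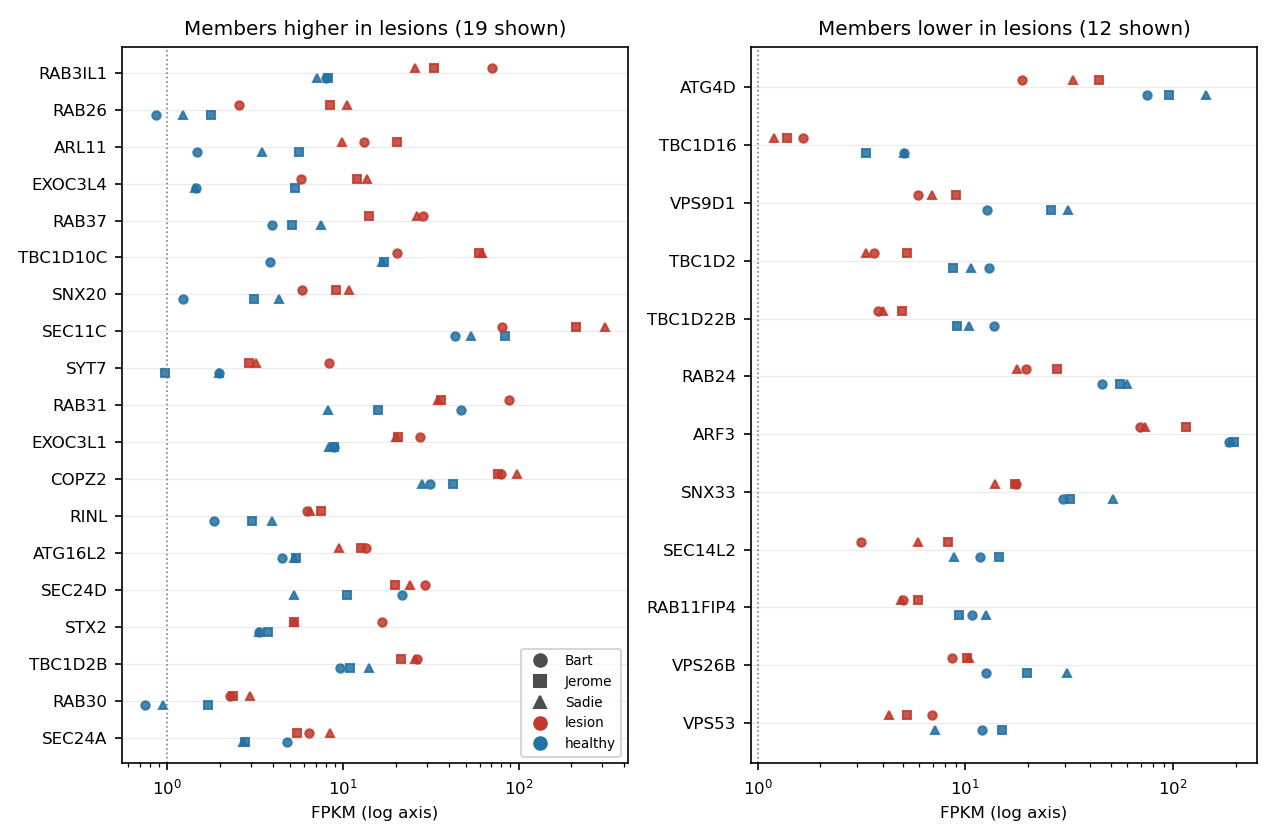
FPKM (horizontal axis, logarithmic) of 31 of the trafficking genes (vertical axis) in the 6 libraries, with red for lesions, blue for healthy mucosa and 1 symbol per cat. Genes are ordered by the size of their log2 difference, from RAB3IL1 (2.33) and ATG4D (-1.75) at the top to SEC24A (1.02) and VPS53 (-1.02) at the bottom, and the red and blue points of SEC11C, RAB31 and SEC24D overlap.

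Nearest to the 2-fold limit by mean log2 difference lay SEC24A on the higher side and VPS53 on the lower side. Genes just short of it carry no name, so trafficking genes outside the limit cannot be shown. The same holds for the strongest falls of the table, whose rows were not used here. Levels spanned a wide range: averaged over the 6 libraries, ARF3 (138 FPKM) and SEC11C (131 FPKM) lay above 93.6% and 93.2% of all identifiers tested, and RAB30 (1.84 FPKM) above 7.26%. The middle of all identifiers was 12.7 FPKM, and 16 of the 33 genes lay above it. RAB26, SYT7 and RAB30 had 1 or more healthy values under the floor of 1 FPKM, so the floor understates their differences.

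Of the 5 Rab GTPases, 4 were higher and 1 lower in lesions. RAB26, which acts on secretory granules, measured 2.56, 8.42 and 10.5 FPKM in lesions against 0.861, 1.77 and 1.24 FPKM in healthy mucosa. RAB37, its closest relative by family and a Rab of secretory granules too, measured 28.6, 14.0 and 26.5 FPKM in lesions against 3.96, 5.17 and 7.50 FPKM. Neither gene overlapped between the tissues, and both were at least 2-fold higher in each cat, but the lesion of Bart was the lowest for RAB26 and the highest for RAB37. The ratio of RAB37 to RAB26 was accordingly 11.2 in that lesion and 1.67 and 2.52 in the others, with 2.92 to 6.06 in healthy mucosa.
RAB31, a Rab of the trans-Golgi network and endosomes, measured 88.0, 36.2 and 35.0 FPKM in lesions against 47.1, 15.9 and 8.26 FPKM in healthy mucosa. Healthy mucosa of Bart exceeded the lesions of the other cats, although RAB31 was higher in the lesion within each cat, by log2 differences of 0.90, 1.19 and 2.08. RAB30, a Golgi Rab, stayed low at 2.29, 2.36 and 2.98 FPKM in lesions against 0.748, 1.71 and 0.950 FPKM in healthy mucosa. RAB24, an unusual Rab linked to autophagy, was the lower member, at 19.6, 27.5 and 17.7 FPKM in lesions against 45.4, 55.2 and 60.1 FPKM in healthy mucosa. RAB24 was 2.51-fold lower on average and at least 2-fold lower in each cat.

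Exchange factors and effectors of Rab proteins split evenly. RAB3IL1 (ENSFCAG00000007376), an exchange factor for RAB3 and RAB8 proteins, had the largest difference of the 33 genes, with 71.1, 33.1 and 25.7 FPKM in lesions against 8.07, 8.26 and 7.17 FPKM in healthy mucosa. Healthy mucosa of the 3 cats was nearly equal (SD 0.58 FPKM around a mean of 7.83 FPKM), whereas the lesions spread over an SD of 24.4 FPKM, with Bart far above the others. RINL, which carries a VPS9 exchange domain, measured 6.24, 7.47 and 6.51 FPKM in lesions against 1.84, 3.05 and 3.95 FPKM in healthy mucosa.
VPS9D1, another gene with a VPS9 domain, was lower: 5.92, 9.00 and 6.88 FPKM in lesions against 12.7, 25.7 and 31.3 FPKM in healthy mucosa. It was at least 2-fold lower in every cat, so the 2 genes with this domain lay on opposite sides. RAB11FIP4, an effector of RAB11 on recycling endosomes, measured 5.01, 5.92 and 4.90 FPKM in lesions against 10.7, 9.37 and 12.6 FPKM in healthy mucosa, a 2.06-fold difference.

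TBC-domain genes, which encode GTPase-activating proteins for Rab GTPases, also lay on both sides, with 2 higher and 3 lower. TBC1D10C, known as carabin and prominent in lymphocytes, measured 20.3, 59.2 and 61.6 FPKM in lesions against 3.86, 17.1 and 16.7 FPKM in healthy mucosa. Its difference was similar in each cat (log2 2.40, 1.79 and 1.88) although Bart lay far below the other cats within each tissue. TBC1D2B measured 26.5, 21.4 and 25.8 FPKM in lesions against 9.66, 11.0 and 14.1 FPKM in healthy mucosa.
TBC1D2, the paralog of TBC1D2B and known as Armus, a regulator of RAB7, measured 3.63, 5.27 and 3.32 FPKM in lesions against 13.0, 8.75 and 10.7 FPKM in healthy mucosa. The paralogs were near each other in level in healthy mucosa and apart in lesions: TBC1D2 reached 0.760 to 1.34 times the level of TBC1D2B in healthy mucosa and 0.128 to 0.246 times in lesions. This ratio within a library does not depend on how libraries were scaled, but the choice of both genes for opposite differences fixes its direction. TBC1D22B was lower too, with 3.78, 4.98 and 4.02 FPKM in lesions against 13.8, 9.10 and 10.4 FPKM in healthy mucosa. TBC1D16, which acts on RAB4 in receptor recycling, was the weakest of the lower genes in level, with 1.65, 1.38 and 1.20 FPKM in lesions against 5.06, 3.32 and 5.09 FPKM in healthy mucosa. It was more than 2-fold lower in every cat.

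**Figure D2:**
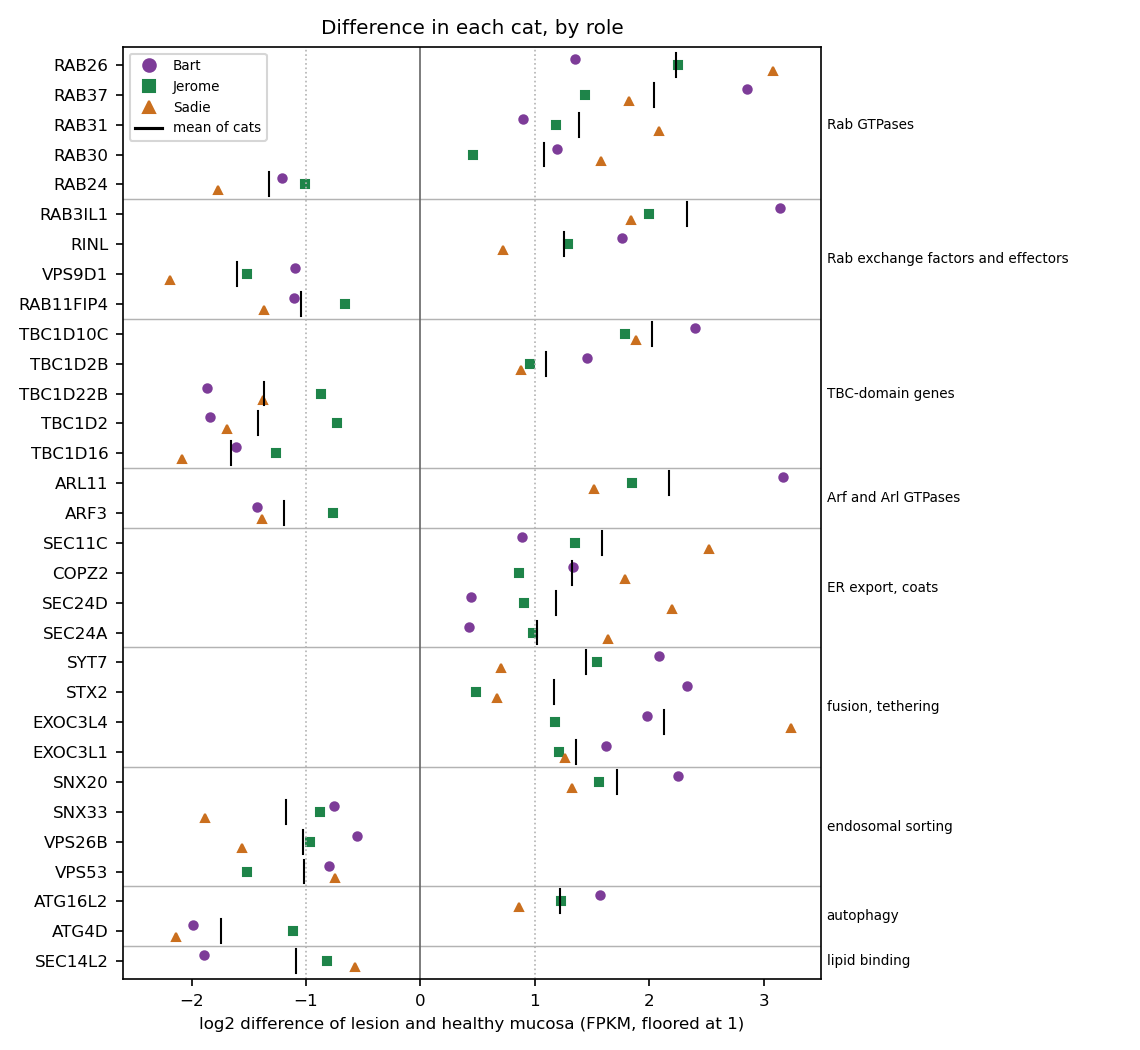
Log2 difference of lesion and healthy mucosa (horizontal axis) of 31 of the trafficking genes, grouped by role (vertical axis), with 1 symbol per cat, a black bar at the mean and dotted lines at 2-fold. Genes of export from the endoplasmic reticulum and of fusion all lie on the right, the TBC-domain and endosomal sorting genes lie on both sides, and Sadie (triangles) is the farthest right for all 4 genes of endoplasmic reticulum export and coats.

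Of the Arf and Arl GTPases reported, 1 was higher and 1 was lower in lesions. ARL11, an Arf-like GTPase described in macrophages, measured 13.3, 20.2 and 9.89 FPKM in lesions against 1.48, 5.62 and 3.46 FPKM in healthy mucosa.
ARF3, a GTPase that recruits coats to the trans-Golgi network, had the highest level of the 33 genes in healthy mucosa, where it measured 186, 196 and 190 FPKM, against 68.9, 115 and 72.9 FPKM in lesions, where the mean of SEC11C was higher. Healthy mucosa agreed closely between cats (SD 5.07 FPKM), and the lesions did not (SD 25.7 FPKM). ARF3 is very close in sequence to ARF1, and how the authors assigned reads that fit both copies is not given, so its values are less certain.

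Genes of export from the endoplasmic reticulum and of coats were higher in lesions in 4 of 4 cases, beside 67.0% of all named identifiers, and with so few genes nothing is read from this. SEC11C, a catalytic subunit of the signal peptidase that trims secreted proteins, measured 80.0, 213 and 310 FPKM in lesions against 43.3, 83.5 and 53.9 FPKM in healthy mucosa. The lesion of Bart lay just below the healthy mucosa of Jerome. Within each cat SEC11C was higher in the lesion, from a log2 difference of 0.89 in Bart to 2.53 in Sadie.
SEC24D, a cargo adaptor of COPII coats, measured 29.5, 19.7 and 24.1 FPKM in lesions against 21.7, 10.5 and 5.26 FPKM in healthy mucosa. Its relative SEC24A measured 6.46, 5.49 and 8.42 FPKM in lesions against 4.80, 2.78 and 2.70 FPKM in healthy mucosa. Both adaptors differed least in Bart (log2 0.44 and 0.43) and most in Sadie (2.20 and 1.64), and SEC24D exceeded SEC24A by 1.95 to 4.57 times in all 6 libraries. COPZ2, the zeta subunit of COPI coats, measured 79.0, 76.4 and 97.7 FPKM in lesions against 31.3, 42.1 and 28.3 FPKM in healthy mucosa, with no overlap.
For all 4 of these genes the difference was largest in Sadie, whereas Sadie had the largest difference for 31.2% of all identifiers at least 2-fold higher in lesions. Without the cat Sadie, SEC24D and SEC24A had log2 differences of 0.67 and 0.70, under 2-fold, and SEC11C and COPZ2 of 1.12 and 1.10. The choice of SEC24D and SEC24A thus rested on Sadie, so nothing is read from this share. Across lesions, SEC11C was lowest in Bart and highest in Sadie, whereas SEC24D, SEC24A and COPZ2 were lowest in Jerome. SEC24D was highest in Bart, and SEC24A and COPZ2 were highest in Sadie. All 5 named plasma cell markers were lowest in Bart, of which TNFRSF17, DERL3 and POU2AF1 were highest in Sadie, and SLAMF7 and SDC1 highest in Jerome. TNFRSF17 measured 139, 357 and 658 FPKM in lesions against 6.69, 89.8 and 23.9 FPKM in healthy mucosa, and DERL3 50.1, 129 and 229 FPKM against 8.29, 22.7 and 7.50 FPKM. SLAMF7 measured 10.5, 28.4 and 21.1 FPKM in lesions. Over the 5 named of 10 plasma cell markers the sum was 350 to 1702 FPKM in lesions against 681 to 808 FPKM in healthy mucosa, with SDC1, also an epithelial gene, the 1 that was lower in lesions. The part of these cells in the 4 values was not tested.

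Genes of membrane fusion and tethering were also higher in 4 of 4 cases, beside the same 67.0%. SYT7, a calcium sensor for the exocytosis of lysosomes and granules, measured 8.40, 2.91 and 3.23 FPKM in lesions against 1.97, 0.976 and 1.98 FPKM in healthy mucosa. STX2, a SNARE of the plasma membrane, measured 16.8, 5.28 and 5.31 FPKM in lesions against 3.32, 3.76 and 3.33 FPKM in healthy mucosa. Neither overlapped, but the lesion of Bart was more than 2 times as high as the other lesions for both genes. Outside Bart, STX2 was higher by log2 differences of 0.49 and 0.67, below 2-fold.
EXOC3L4 and EXOC3L1, relatives of the exocyst subunit EXOC3, had no overlap. EXOC3L4 measured 5.79, 12.1 and 13.7 FPKM in lesions against 1.46, 5.35 and 1.45 FPKM in healthy mucosa. EXOC3L1 was the steadier gene, with 27.4, 20.7 and 20.1 FPKM in lesions against 8.92, 8.93 and 8.39 FPKM, and log2 differences of 1.62, 1.21 and 1.26.

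Of the 4 genes of endosomal sorting, 1 was higher and 3 were lower in lesions. SNX20, a sorting nexin that binds the selectin ligand PSGL-1 of leukocytes, measured 5.90, 9.19 and 10.9 FPKM in lesions against 1.24, 3.11 and 4.35 FPKM in healthy mucosa. SNX33, a sorting nexin of endocytosis in many cell types, measured 17.5, 17.3 and 13.9 FPKM in lesions against 29.5, 31.9 and 51.3 FPKM in healthy mucosa. SNX33 was 10.2 to 23.9 times as abundant as SNX20 in healthy mucosa and 1.27 to 2.97 times in lesions.
VPS26B, a subunit of the retromer that returns receptors from endosomes, measured 8.59, 10.2 and 10.4 FPKM in lesions against 12.6, 19.9 and 30.7 FPKM in healthy mucosa. VPS53, a subunit of tethers between endosomes and the Golgi apparatus, measured 6.87, 5.26 and 4.27 FPKM in lesions against 12.0, 15.0 and 7.16 FPKM in healthy mucosa. For VPS53, healthy mucosa of Sadie was nearly as low as the lesion of Bart. Lesion values of VPS26B varied little (SD 0.98 FPKM) and its healthy values more (SD 9.11 FPKM).

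The 2 autophagy genes lay on opposite sides. ATG16L2, a relative of the autophagy scaffold ATG16L1, measured 13.5, 12.7 and 9.55 FPKM in lesions against 4.54, 5.41 and 5.26 FPKM in healthy mucosa. ATG4D (ENSFCAG00000004883), a protease that processes LC3 proteins, measured 18.8, 44.0 and 32.9 FPKM in lesions against 74.6, 95.4 and 144 FPKM in healthy mucosa, the largest difference of the lower genes (3.36-fold). ATG4D was 16.5 to 27.4 times as abundant as ATG16L2 in healthy mucosa and 1.40 to 3.46 times in lesions. SEC14L2, a lipid-binding protein that the prefix of its symbol brought into the set, measured 3.16, 8.22 and 5.92 FPKM in lesions against 11.7, 14.4 and 8.77 FPKM in healthy mucosa. The lesion of Jerome came close to the healthy mucosa of Sadie for SEC14L2.

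**Figure D3:**
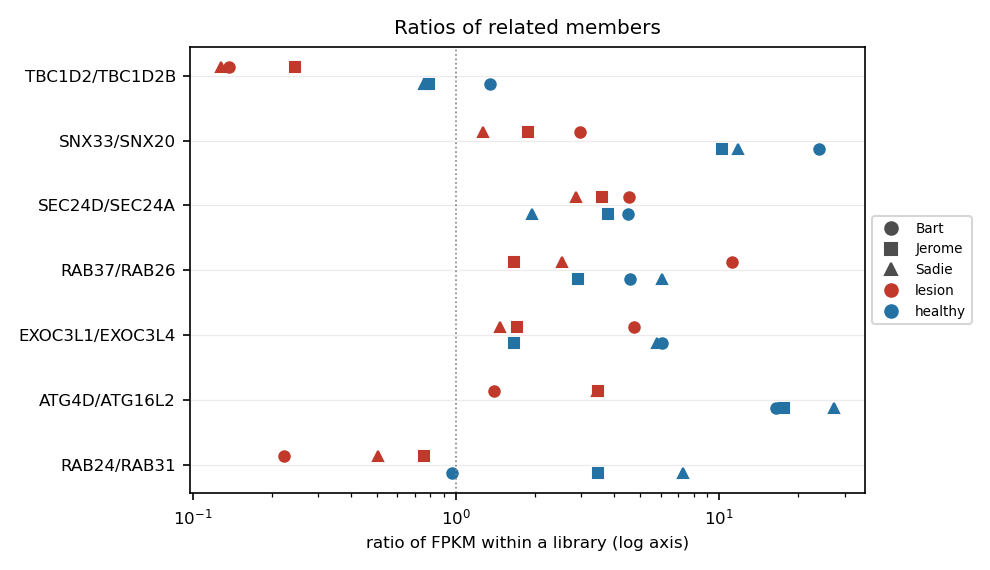
Ratio of FPKM within a library (horizontal axis, logarithmic) for related genes of the set (vertical axis), with red for lesions, blue for healthy mucosa and 1 symbol per cat. TBC1D2/TBC1D2B, SNX33/SNX20, ATG4D/ATG16L2 and RAB24/RAB31, chosen for opposite differences, separate by tissue, and the 3 ratios of genes that were both higher in lesions overlap.

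How the cats ranked within a tissue was not itself used to choose the genes, but the values of each cat entered the 2-fold difference that was. Without the lesion of Bart, STX2, SYT7 and RAB31 had log2 differences of 0.61, 0.96 and 0.96, under 2-fold. The ranks are therefore not independent of the choice. Among the 21 higher genes, the lesion of Bart was the highest of the 3 lesions for 10 and the lowest for 8, whereas it was the highest for 53.6% and the lowest for 37.2% of the 2257 identifiers at least 2-fold higher in lesions. The highest in Bart included RAB3IL1, RAB37, SYT7, RAB31, EXOC3L1, ATG16L2, SEC24D, STX2 and TBC1D2B. The lowest included RAB26, EXOC3L4, TBC1D10C, SNX20, SEC11C, RINL and RAB30. STX2 (log2 of Bart minus the mean of the other cats 1.66), SYT7 (1.45), RAB31 (1.31) and RAB3IL1 (1.29) stood highest, and RAB26 (-1.88), SEC11C (-1.68), TBC1D10C (-1.57) and EXOC3L4 (-1.15) were among the lowest. The lesion of Bart was thus highest for 47.6% and lowest for 38.1% of the 21 genes, and how far these shares differ from those of the identifiers was not tested.
Healthy mucosa of Bart had the lowest healthy value for 7 of the 8 genes lowest in its lesion (73.6% over the identifiers at least 2-fold higher), the exception being EXOC3L4. It had the highest healthy value for 2 of the 10 genes highest in its lesion, RAB31 and SEC24D (60.0% over those identifiers). RAB3IL1 and STX2 thus stood out in the lesion of Bart only, with differences from the other cats of 0.07 and -0.09 in healthy mucosa.
Marker genes differed between the lesions in both directions as well. T cell markers summed to 259 FPKM in the lesion of Bart against 579 and 719 FPKM in those of Jerome and Sadie, and B cell markers (7 of 10 named) to 221 FPKM against 587 and 1342 FPKM. Markers of fibroblasts (5 of 11 named) summed to 2979 FPKM in the lesion of Bart against 695 and 812 FPKM, those of endothelium (9 of 10 named) to 2079 FPKM against 909 and 850 FPKM, and those of myeloid cells (8 of 11 named) to 1318 FPKM against 1026 and 684 FPKM. Most of the myeloid gap came from CSF3R, a receptor of neutrophils (291, 86.9 and 39.2 FPKM), and TYROBP, a signalling adaptor (602, 516 and 351 FPKM). Of the other named myeloid markers, CSF1R (77.4, 104 and 80.9 FPKM) and CD163 (45.4, 52.5 and 41.8 FPKM) were highest in the lesion of Jerome. CD14 (219, 205 and 108 FPKM), CCR1 (57.71, 49.95 and 50.05 FPKM), MSR1 (8.30, 7.09 and 7.36 FPKM) and ITGAM (17.2, 4.90 and 5.49 FPKM) were highest in that of Bart. The part of these cells in the ranks of the trafficking genes was not tested.

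**Figure D4:**
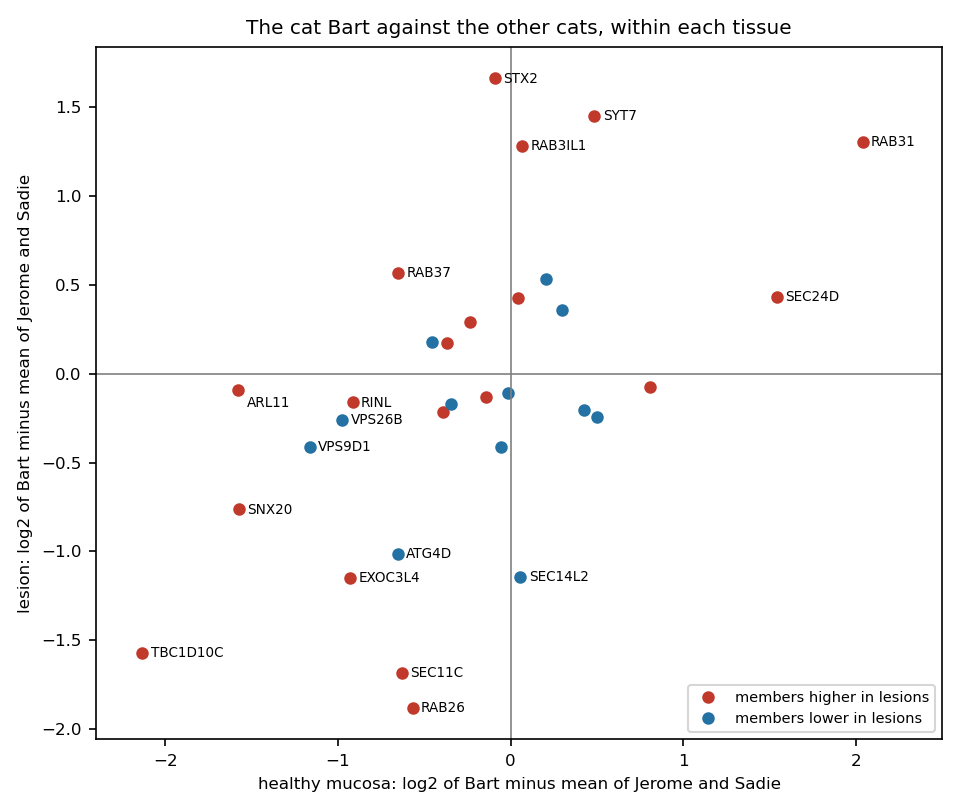
Log2 FPKM (floored at 1) of Bart minus the mean of Jerome and Sadie, in lesions (vertical axis) and in healthy mucosa (horizontal axis), for 31 of the trafficking genes, red where higher and blue where lower in lesions. STX2, SYT7, RAB3IL1 and RAB31 lie at the top (1.29 to 1.66), RAB26, SEC11C and TBC1D10C at the bottom (-1.88 to -1.57), and genes near the middle are not labelled.

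For the 12 lower genes, the lesion of Jerome was the highest of the lesions for 8 and the lowest for 0. That is 66.7% of the 12, where Jerome was the highest for 64.8% and the lowest for 8.35% of the 1640 identifiers at least 2-fold lower in lesions. The difference was the smallest in Jerome for 7 of the 12 (54.7% of those identifiers). Of the named epithelial markers, EZR, COL17A1, LAMB3 and KRT4 were also highest in the lesion of Jerome, whereas TGM5 was highest in that of Sadie. EZR, the epithelial membrane linker ezrin, measured 151, 216 and 182 FPKM in lesions against 580, 549 and 681 FPKM in healthy mucosa, and COL17A1, a collagen of basal keratinocytes, 51.4, 114 and 42.7 FPKM against 504, 222 and 240 FPKM. LAMB3 measured 0.980, 35.6 and 12.8 FPKM in lesions against 44.6, 23.7 and 21.7 FPKM in healthy mucosa, so in Jerome it was higher in the lesion. The 3 named of 14 markers of basal and general epithelium summed to 204 to 366 FPKM in lesions against 794 to 1129 FPKM in healthy mucosa. The part of these markers in the 12 values was not tested.

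**Figure D5:**
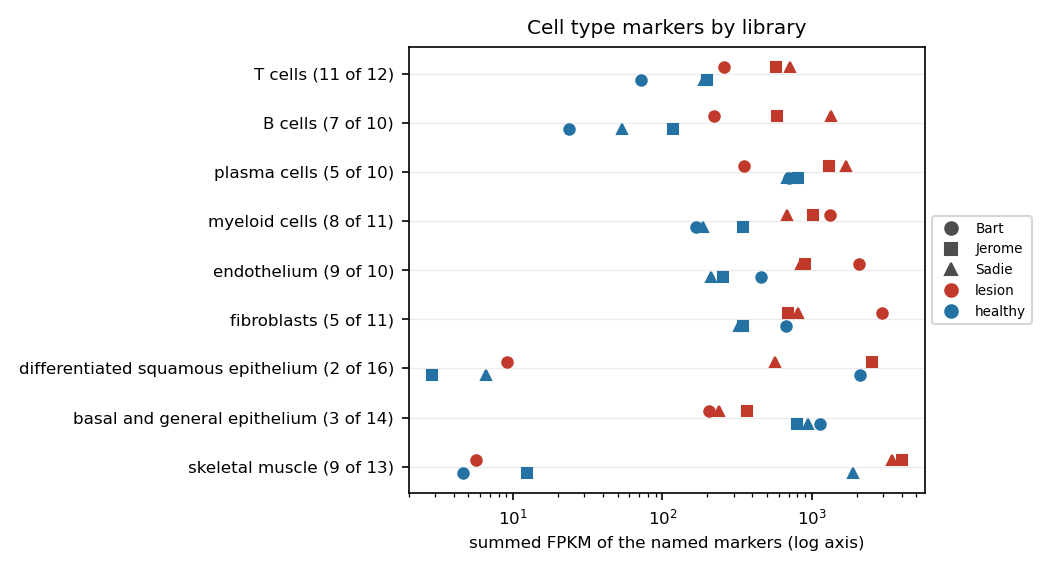
Summed FPKM (horizontal axis, logarithmic) of the named markers of each cell type (vertical axis, with the number named of the number listed), with red for lesions, blue for healthy mucosa and 1 symbol per cat. The lesion of Bart (red circles) is the lowest lesion for T cells (259 FPKM) and B cells (221 FPKM) and the highest for endothelium (2079 FPKM) and fibroblasts (2979 FPKM), and muscle markers separate libraries of both tissues.

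Trafficking genes outside the prefixes of the rule were taken from 7 lists by role, 391 genes in all. Of these, 48 had a name, 33 higher and 15 lower in lesions, where 1292 of all 1929 named identifiers were higher. In limma 16 rose and 4 fell, where 407 of the named identifiers (21.1%) rose and 275 (14.3%) fell. With the cat as a block 25 rose and 9 fell, against 46.1% and 22.0% of the named identifiers. The counts of single lists stand beside these shares and are not read as particular to a list. A name required a 2-fold difference in these same libraries, so the counts cannot serve as separate evidence of direction, and the state of the genes without a name is not known. Limma without the block called 0 identifiers without the cat Jerome or the cat Sadie (2436 and 2139 at an unadjusted p under 0.05). It called 1 without the lesion of Sadie, 9 without the healthy library of Sadie and 132 without the healthy library of Jerome.
Exchange factors, GTPase-activating proteins and effectors of Arf proteins had 10 of 44 named, 6 of which rose and 0 fell, beside the 21.1% and 14.3% of all named identifiers. CYTH4, the cytohesin of leukocytes, rose from 3.83, 15.4 and 9.27 FPKM in healthy mucosa to 47.2, 50.3 and 57.2 FPKM in lesions, a log2 difference of 2.65 (SE 0.50). ADAP1, ADAP2 and SMAP2, which carry Arf-GAP domains, rose by 1.68, 1.62 and 1.15 on the log2 scale.
Regulators and effectors of Rab proteins had 9 of 60 named, of which 2 rose and 3 fell. MICAL1, a RAB effector that oxidizes actin, rose from 12.6, 13.6 and 19.4 FPKM to 42.4, 29.0 and 34.2 FPKM (log2 difference 1.22), and RILPL2, a RAB effector, by 1.10. SGSM2 and EVI5L, which carry TBC domains, fell by 1.25 and 1.29 on the log2 scale.
Of the early secretory pathway, 4 of 78 were named and 2 rose. PREB, known as SEC12, the exchange factor that starts COPII coats, rose from 16.3, 22.1 and 26.0 FPKM to 40.6, 62.3 and 81.3 FPKM (log2 difference 1.49, SE 0.32), and TMED3, a cargo receptor, by 1.00. PREB was, like SEC11C, lowest in the lesion of Bart and highest in that of Sadie, whereas TMED3 was lowest in Bart and highest in Jerome.
Clathrin, adaptor and endocytosis genes had 13 of 78 named, of which 2 rose and 1 fell. BIN2, a membrane-bending protein of leukocytes, rose by 2.39 and ARRB2, an arrestin of receptor endocytosis, by 1.59, whereas DNMBP, which activates CDC42 at epithelial junctions, fell by 1.42. Of the endosome and lysosome list, 6 of 52 were named and 2 rose. CD63, a tetraspanin of lysosomes and granules, rose from 259, 261 and 245 FPKM to 690, 533 and 559 FPKM (log2 difference 1.21), and HPS3, of a complex for lysosome-related organelles, rose by 1.40. Of SNARE machinery outside the rule, 4 of 49 were named and 1 rose, SYNGR3, a synaptogyrin of vesicle membranes, by 2.41. Of the other autophagy genes, 2 of 30 were named and 1 rose: TECPR1, which links autophagosomes to lysosomes, from 3.37, 6.81 and 3.60 FPKM to 14.4, 21.8 and 25.7 FPKM.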

How the data were processed

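RNA libraries of 6 biopsies (3 lesions, 3 healthy mucosa) were analysed as FPKM per Ensembl identifier, which the authors made with Cuffnorm. Of earlier steps the labels list bcl2fastq, HISAT and Cufflinks. Tool versions, genome build and annotation were not given in the sources used here, the paper gives only an approximate read number common to all samples, and labels and paper differ on single or paired reads. Steps among values under 0.1 FPKM put the other libraries at 1.11 to 1.67 times the depth of the lesion of Sadie, but only 6.3% to 16.8% of these values lay at the step, so no reads were recovered. Symbols came from the study's supplementary gene table, whose 1981 rows at hand each matched exactly 1 identifier to 5 significant digits, and a name was kept where 3 or more values exceeded the floor.

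FPKM was floored at 1 and log2-transformed. Identifiers reaching the floor in 3 of the 6 libraries entered limma (3.58.1, under R 4.3.3), two-sided, with tissue as the single factor and a variance trend on mean level, and p-values were adjusted by Benjamini-Hochberg over all 13327. The step was tested on simulated data without correlation within cats and with changes larger than most reported here, so nothing is read from that test about these genes. Python 3.11.15 made the counts and, with matplotlib 3.10.9, the figures. The labels tie both biopsies of a pair to 1 cat, and deviations from the tissue means correlated within cats at 0.49, 0.20 and 0.41 (Bart, Jerome, Sadie). With 1 biopsy per cat and tissue, n is 3 cats. Members, lists and roles were chosen with earlier results of these data known. Of the 33 genes, which all enter the counts, 31 are named and 2 are not reported here, with up to 4 genes past the test per list. Other scalings, floors, filters and left-out libraries were run as alternatives.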

Additional observations from a re-analysis of the deposited data

How the results depend on the processing

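No trafficking gene changed direction under the 17 alternatives run, of which the filter on all 6 libraries fitted 29 of the 33 genes. The genes were chosen on this contrast and had the same direction in every cat, so nothing is read from this. Quantile normalization, median centring, 0.1 or 1 FPKM added in place of the floor, a filter on all 6 libraries and a fit without the trend left the counts of calls within 1.5 times of the 7 higher and 8 lower genes and of 1588 identifiers. With no filter on low values limma called 2 higher and 1 lower gene and 526 identifiers (16 and 11 genes at an unadjusted p under 0.05). With the cat as a replicate block it called 16 higher genes and 3098 identifiers. Without the block, leaving out 1 library or 1 cat gave 0 to 7 higher genes, 0 to 4 lower genes and 0 to 2136 identifiers. Genes without overlap of the tissues then numbered 29 to 33. Fewer libraries can only keep or raise this number, and the share over all identifiers was not computed, so nothing is read from it. A log2 difference of at least 1 held for 26 of 33 genes with 1 FPKM added and for 26 to 33 when a library or cat was left out. The ranks of the cats within lesions, recomputed with quantile normalization and median centring (chosen after seeing the data), moved by at most 2 genes. The files hold FPKM and no reads per library, so no counting error is given.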
